A study of Homo sapiens with 6 samples.

Results

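The metallothioneins are a family of small metal-binding proteins, and 8 of their genes were described here in HCT116 cells with and without knockdown of the long non-coding RNA GMDS-AS1. The members were chosen by symbol as MT2A, MT1E, MT1F, MT1G, MT1H, MT1M, MT1X and MT1A, which are 8 of the 60662 genes with a value in every library. HCT116 is an established human colorectal carcinoma cell line. The cells were grown in McCoy's 5a medium with serum and carried either a nontarget control short hairpin RNA (shCtrl) or the hairpin GMDS-AS1 shRNA2 (GMDS-AS1 KD), both from a stably integrated lentiviral plasmid. Poly-A RNA was sequenced from 3 libraries a group, so that shCtrl with n = 3 was compared with GMDS-AS1 KD with n = 3. Only 1 hairpin against GMDS-AS1 was sequenced, and no source says whether the 3 libraries of a group came from separate transductions, so that the spread between them may be that of parallel cultures of 1 transduced population. The values are TPM, a transcript level normalized for the length of the transcript and for the total of the library. The choice of the members used this same contrast and they were taken as an expressed family, so their differences between the groups are given as a description, with no test. Of the 8 members, 4 (MT2A, MT1E, MT1X and MT1F) were above 0 in all 6 libraries, MT1M was above 0 in 1 library, and MT1G, MT1H and MT1A were listed at 0 in all of them. For those last 4 genes the data therefore went against the word expressed.

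Metallothioneins bind zinc and copper through clusters of cysteine thiolates, buffer free zinc in the cell and also bind cadmium and other toxic metals. Their genes are switched on when zinc rises, by the zinc-sensing transcription factor MTF1, which binds metal response elements in their promoters. Glucocorticoids and inflammatory cytokines also raise several of them, MT2A among these. MT2A is the form found in most human tissues, and the MT1 genes are a group of close copies beside it.

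The coding sequences are shown because the features of the family, its cysteines and the closeness of its copies, can be read from them. The sequences are those of the principal transcripts in GENCODE v29, on GRCh38, and every in-frame cysteine codon (TGC or TGT) is in capitals. The 4 members with a level in every library are printed.
MT2A: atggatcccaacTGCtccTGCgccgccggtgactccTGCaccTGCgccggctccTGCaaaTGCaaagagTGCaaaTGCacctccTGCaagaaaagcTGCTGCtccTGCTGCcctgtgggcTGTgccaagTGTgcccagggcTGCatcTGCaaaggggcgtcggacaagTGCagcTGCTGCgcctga
MT1E: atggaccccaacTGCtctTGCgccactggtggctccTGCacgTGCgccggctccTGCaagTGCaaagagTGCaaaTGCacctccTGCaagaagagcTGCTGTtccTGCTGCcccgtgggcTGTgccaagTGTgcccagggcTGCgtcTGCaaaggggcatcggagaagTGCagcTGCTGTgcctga
MT1X: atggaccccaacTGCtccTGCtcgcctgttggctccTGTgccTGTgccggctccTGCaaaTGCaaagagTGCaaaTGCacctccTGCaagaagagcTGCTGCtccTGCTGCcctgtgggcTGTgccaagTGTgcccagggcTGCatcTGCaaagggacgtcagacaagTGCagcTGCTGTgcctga
MT1F: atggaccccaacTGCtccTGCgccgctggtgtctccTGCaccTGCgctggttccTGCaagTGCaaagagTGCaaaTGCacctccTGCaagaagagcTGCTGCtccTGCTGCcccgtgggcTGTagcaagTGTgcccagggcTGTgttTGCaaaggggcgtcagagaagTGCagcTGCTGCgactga
Each of the 8 members has a coding sequence of 186 bases with its stop, spread over 3 exons, and each holds 20 cysteine codons among 61 codons. In MT2A 18 of these were TGC, against 15 in MT1X. Between members the coding sequences were identical at 88.71% of bases for MT1F and MT1X at the lowest and at 95.16% for MT2A and MT1G at the highest. Of all stretches of 50 bases in a member's principal transcript, 3.59% in MT1F, 4.88% in MT2A, 5.34% in MT1E and 15.96% in MT1X also occurred in another transcript of the family. The share was 5.76% in MT1A, 7.05% in MT1M, 20.17% in MT1G and 20.4% in MT1H. Reads that lie within such shared stretches can be split between copies, so the values of the low copies are uncertain.

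All 8 members lie on chromosome 16, within a cluster that runs from MT4 to MT1X (chr16:56565049-56684196). MT2A lies at chr16:56608199-56609497, MT1E at chr16:56625475-56627112, MT1M at chr16:56632233-56633986, MT1A at chr16:56638666-56640087, MT1F at chr16:56657694-56660698, MT1H at chr16:56669814-56671129 and MT1X at chr16:56682424-56684196, all on the plus strand. MT1G, at chr16:56666731-56668065, is on the minus strand. The members with a level in every library are thus interleaved along the cluster with those at 0.

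GMDS-AS1 itself, listed under the symbol GMDS-DT, was at 1.66, 2.21 and 1.34 TPM in shCtrl and at 0.88, 0.91 and 0.79 TPM in GMDS-AS1 KD. The groups did not overlap, and the mean of GMDS-AS1 in GMDS-AS1 KD was 49.5% of that in shCtrl as deposited. After scaling between libraries, GMDS-AS1 fell by 0.68 with a pseudocount of 0.1 and by 0.41 on the log2(scaled TPM + 1) scale (limma adjusted p = 0.0407). That call was lost when any library other than shCtrl replicate 3 was left out: adjusted p was 0.0802 without shCtrl replicate 1, 0.117 without shCtrl replicate 2, and 0.0823, 0.0714 and 0.101 without GMDS-AS1 KD replicates 1, 2 and 3. GMDS, which encodes GDP-mannose 4,6-dehydratase and lies head to head with it, fell by 0.77 (adjusted p = 0.00624). The target bases in the listed oligo of the hairpin are aagaccacagatagatggtaa, and their match to GMDS-AS1 was not checked here. The longest run these bases shared with the principal transcript of a member was 5 bases, or 6 in MT1M. The 6 libraries listed 24381 to 26402 genes above 0, and the log2 levels of libraries correlated at 0.987 to 0.988 within a group and 0.975 to 0.976 between groups, across genes. The epithelial markers EPCAM, CDH1 and CDX2 were present in both groups, the keratins KRT8 and KRT18 fell by 1.46 and 1.83 on the log2 scale, and PTPRC, the leukocyte marker, was listed at 0 in all 6 libraries. Of 10 markers of other cell types 7 stayed under 2 TPM in every library. The rest were CD68, COL1A1 and ACTA2. CD68 was at 6.35 to 8.21 TPM in shCtrl and 6.52 to 8.16 TPM in GMDS-AS1 KD. COL1A1 was at 12.76 to 14.42 and 10.04 to 10.96 TPM, and ACTA2 at 12.92 to 13.62 and 21.17 to 22.49 TPM. ACTA2 rose by 0.91 (limma adjusted p = 1.2e-05), and CD68 and COL1A1 were not called (adjusted p = 0.0722 and 0.204). The summed level of the 10 was 34.4 to 36.3 TPM in shCtrl and 39.9 to 40.9 TPM in GMDS-AS1 KD. The part of these markers in the results was not tested. For tests, TPM were rescaled between libraries by a trimmed mean, which put GMDS-AS1 KD 0.25 log2 units higher relative to shCtrl than the deposited TPM did. Every log2 difference, above and below, is on the log2(scaled TPM + 1) scale unless another setting is named with it. The median difference of all 16901 genes tested was -0.002 on that scale and -0.195 as deposited.

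The 4 members with a level in every library were lower in GMDS-AS1 KD, by between 2.4-fold and 6.5-fold after scaling, and in none of them did the groups overlap. MT2A was at 11959.73, 11313.12 and 11562.12 TPM in shCtrl and at 2088.98, 2120.75 and 2100.27 TPM in GMDS-AS1 KD. Every shCtrl library was thus above every GMDS-AS1 KD library, and the means of 11612 ± 326 and 2103 ± 16.1 TPM (SD, n = 3 each) put MT2A at 18.1% of its shCtrl level as deposited. Its log2 difference was -2.22, a 4.65-fold lower level. In bulk RNA a lower level in every cell and fewer cells with a high level cannot be told apart. MT2A had rank 7 among all genes by mean TPM in shCtrl and rank 92 in GMDS-AS1 KD. Its mean dropped by 9508 TPM, more than that of any other gene, and KRT8 came next with a drop of 3068 TPM.

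MT1E, the most abundant MT1 gene in these cells, was at 1338.08, 1326.92 and 1297.81 TPM in shCtrl and at 463.2, 458.4 and 457.72 TPM in GMDS-AS1 KD. The difference was the smallest of the 4 members, at -1.27 on the log2 scale or 2.42-fold lower, although the libraries within a group were more alike for this gene than for the other 3, with an SD of 0.015 on the log2 scale. MT1X was at 443.25, 437.11 and 468.73 TPM in shCtrl and at 65.1, 62.4 and 64.38 TPM in GMDS-AS1 KD. It kept 14.2% of its shCtrl level as deposited, with a log2 difference of -2.55. MT1F was at 34.9, 27.95 and 31.84 TPM in shCtrl and at 3.98, 2.79 and 3.25 TPM in GMDS-AS1 KD, which is 10.6% of its shCtrl level as deposited and a log2 difference of -2.70. MT1F was the least abundant of the 4 and varied most between libraries of a group, with an SD of 0.18 on the log2 scale. The order of the levels, from MT2A through MT1E and MT1X to MT1F, was the same in each of the 6 libraries, and no neighbours in it overlapped within a group. The number of members called at least 2-fold lower with an adjusted p under 0.05 was 4 of the 4 that passed the filter on low values, beside 4.24% of all genes tested. Groups that did not overlap, with GMDS-AS1 KD lower, were seen for the same 4 members and for 44.9% of all genes tested. Nothing is read from these counts, since the members were chosen on this contrast. The median log2 difference was -2.38 over the 4 members that passed and -0.002 over all genes tested.

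**Figure D1:**
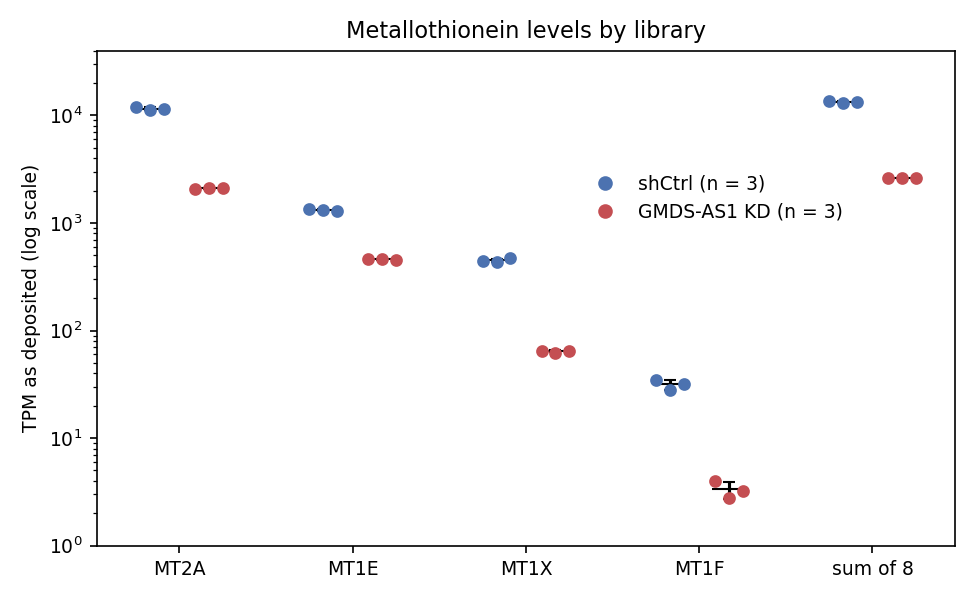
TPM as deposited (log axis) of the 4 measured metallothioneins and of the sum of all 8 members in 3 shCtrl and 3 GMDS-AS1 KD libraries. Points are libraries, horizontal marks the means and bars the SD. For each gene all 3 shCtrl points lie above all 3 GMDS-AS1 KD points, with the narrowest gap at MT1E.

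**Figure D2:**
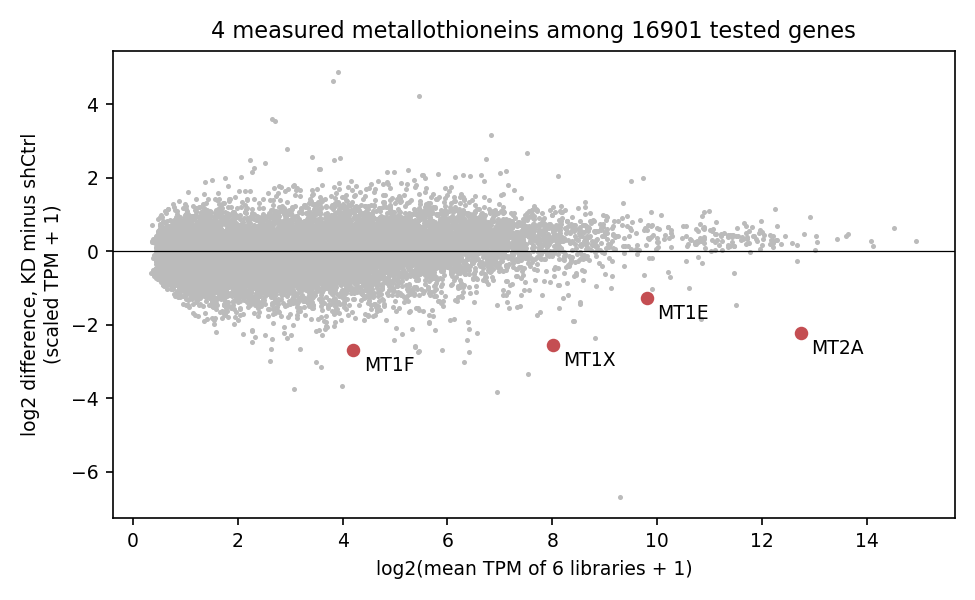
The log2 difference between GMDS-AS1 KD and shCtrl (scaled TPM + 1) of 16901 tested genes against log2 of the mean TPM of the 6 libraries + 1. Grey points are genes and red points the 4 measured metallothioneins, which lie between -1.27 and -2.70 and span levels from MT1F to MT2A.

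The summed level of the 8 members was 13777.04, 13105.1 and 13360.5 TPM in shCtrl and 2621.26, 2644.34 and 2625.62 TPM in GMDS-AS1 KD. As a share of all listed TPM this was 1.35% ± 0.035 in shCtrl and 0.265% ± 0.0012 in GMDS-AS1 KD (SD, n = 3 each). The sum in GMDS-AS1 KD was 19.6% of that in shCtrl as deposited and 23.3% after scaling. The sum without MT2A was 29.2% of that in shCtrl as deposited. MT2A made up 86.6% ± 0.24 of the sum in shCtrl and 80.0% ± 0.25 in GMDS-AS1 KD, and the share of MT1E was 9.85% ± 0.24 and 17.5% ± 0.17. MT1X made up 3.35% in shCtrl and 2.43% in GMDS-AS1 KD, and MT1F 0.235% and 0.127%.

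The members therefore did not keep their proportions. A ratio of 2 members within a library does not depend on how libraries were scaled. MT1E stood at 11.19%, 11.73% and 11.22% of MT2A in shCtrl and at 22.17%, 21.61% and 21.79% of MT2A in GMDS-AS1 KD, so that its ratio to MT2A was 1.92 times higher. MT1X went the other way, with 3.71%, 3.86% and 4.05% of MT2A in shCtrl and 3.12%, 2.94% and 3.07% in GMDS-AS1 KD. MT1F stood at 0.292%, 0.247% and 0.275% of MT2A in shCtrl and at 0.191%, 0.132% and 0.155% in GMDS-AS1 KD. None of these ratios overlapped between the groups. The widest change in proportion was between MT1F and MT1E, whose ratio was 2.39% ± 0.26 in shCtrl and 0.726% ± 0.13 in GMDS-AS1 KD.

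**Figure D3:**
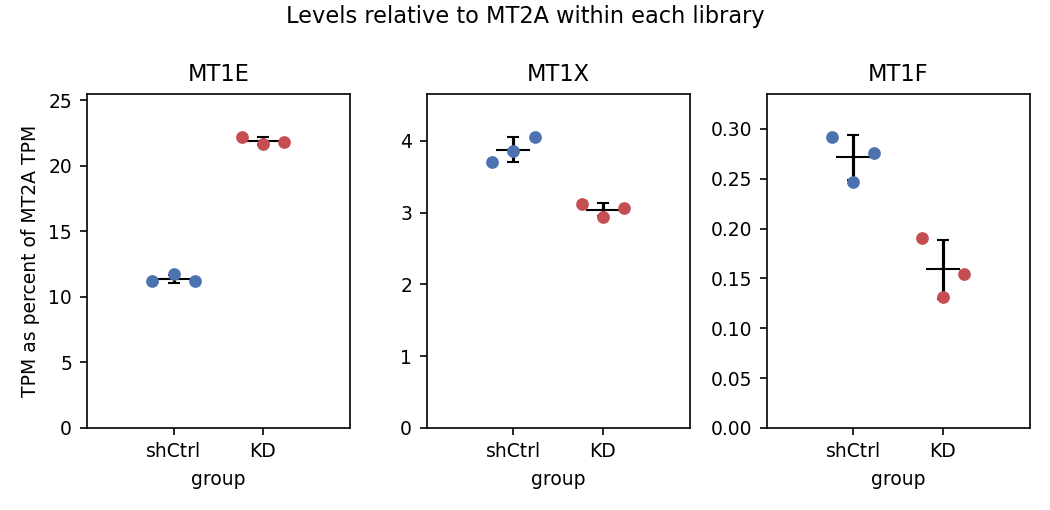
TPM of MT1E, MT1X and MT1F as a percent of MT2A TPM in the same library, in shCtrl (blue) and GMDS-AS1 KD (red), each panel with its own axis from 0. Points are libraries, horizontal marks the means and bars the SD (n = 3). MT1E is near 11% in shCtrl and near 22% in GMDS-AS1 KD, while MT1X and MT1F are lower in GMDS-AS1 KD.

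The other 4 members gave no difference to describe. MT1M was at 1.08 TPM in shCtrl replicate 1 and listed at 0 in the other 5 libraries, and MT1G, MT1H and MT1A were listed at 0 in all 6. Read totals cannot be had from TPM, so the sequencing depth is unknown and no limit can be put on these zeros. The most frequent value above 0 gives some measure of the resolution. Among 731 genes that have a lone transcript in the annotation, 390 to 410 bases long and so near the lengths of MT1G (406), MT1H (397) and MT1A (396), it was 0.30 to 0.35 TPM by library. In 353 such genes of 690 to 710 bases, near MT1F (690), it was 0.10 to 0.21 TPM, beside 2.79 to 3.98 TPM of MT1F in GMDS-AS1 KD. Other short genes are given beside the members, and the part of transcript length in the results was not tested. After scaling, 28.5% of all genes tested rose and 25.9% fell (limma adjusted p under 0.05). Of 274 tested protein-coding genes outside the members whose longest coding transcript was at most 800 bases, 117 rose and 41 fell, with a median log2 difference of 0.20, and as deposited 74 rose and 71 fell, with a median of -0.02. Of the 91 with at least 100 TPM in shCtrl, 72 rose and 6 fell, with a median of 0.38, and as deposited 46 rose and 19 fell, with a median of 0.13.

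Promoter letters were read for the members that have an entry in the RefSeq promoter table of GRCh38.p14, which were 3 of 8 (MT2A, MT1H and MT1X). MT1E, MT1F, MT1G, MT1M and MT1A had none. The 250 bases before the start are shown because metal response elements, the sites of MTF1, are known to lie in them. The core of the element was searched as TGCACNC and TGCGCNC on both strands, matches are in capitals, and none of them overlapped. The stretches are chr16:56608334-56608583 for MT2A, chr16:56682220-56682469 for MT1X and chr16:56669564-56669813 for MT1H, all read 5′ to 3′ on the plus strand, and a match on the other strand appears as its reverse complement. GENCODE v29 starts the transcripts of MT2A and MT1X further upstream than RefSeq does.
MT2A: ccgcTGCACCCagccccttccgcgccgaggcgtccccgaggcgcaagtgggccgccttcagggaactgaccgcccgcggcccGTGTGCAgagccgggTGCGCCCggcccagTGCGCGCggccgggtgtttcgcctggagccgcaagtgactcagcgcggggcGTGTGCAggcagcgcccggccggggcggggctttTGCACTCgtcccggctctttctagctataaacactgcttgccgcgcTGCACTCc
MT1X: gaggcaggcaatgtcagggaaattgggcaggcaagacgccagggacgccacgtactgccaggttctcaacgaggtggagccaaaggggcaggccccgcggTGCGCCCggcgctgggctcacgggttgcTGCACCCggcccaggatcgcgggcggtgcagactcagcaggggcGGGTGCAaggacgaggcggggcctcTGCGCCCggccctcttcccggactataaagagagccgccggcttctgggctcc
MT1H: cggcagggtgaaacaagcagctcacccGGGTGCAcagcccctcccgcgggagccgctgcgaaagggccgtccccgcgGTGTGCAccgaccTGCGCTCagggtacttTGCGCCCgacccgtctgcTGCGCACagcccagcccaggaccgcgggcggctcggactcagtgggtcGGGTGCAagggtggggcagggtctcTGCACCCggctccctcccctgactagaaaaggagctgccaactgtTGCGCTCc
In the window from 250 bases before to 50 bases after the start, MT2A had 8 matches, of which 1 lay after the start, MT1H had 8 and MT1X had 4. Of 35116 promoters in the table, 29.6% held at least 1 match, 0.601% at least 4 and 0.0199% (7 promoters) at least 8. MT2A, at more than 2000 TPM in every library, and MT1H, listed at 0 in every library, thus had the same number of matches, and MT1X, with 4, lay between them in level. SLC30A1, the zinc exporter that MTF1 is known to raise, had 2 matches and MTF1 itself had none. A match is a run of letters and not a measured site, and no binding was measured here.

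Of 13 further metallothionein genes and pseudogenes, 1 passed the filter, 5 were above 0 in some library and 7 were listed at 0 in all. MT1JP, a pseudogene 27.5 kb from MT2A, was at 2.68, 1.71 and 1.55 TPM in shCtrl and at 1.08, 0.70 and 0.34 TPM in GMDS-AS1 KD. It fell by 0.68 (limma adjusted p = 0.0332), and the call was lost without shCtrl replicate 1 or 2 or without GMDS-AS1 KD replicate 2 or 3 (adjusted p = 0.0924, 0.055, 0.0696 and 0.0821). The longest stretch that MT1M shares with another transcript of the family is 75 bases long and lies in MT1JP, so reads there can be split between the pair. The pseudogene MT1DP was at 10.68 TPM in GMDS-AS1 KD replicate 3 and listed at 0 in the other 5 libraries. MT1P1 was at 8.74 TPM in GMDS-AS1 KD replicate 1 and 1.32 TPM in replicate 3, and listed at 0 elsewhere. MT1B was at 0.35 and 0.18 TPM in GMDS-AS1 KD replicates 2 and 3, MT1L at 0.64 TPM in shCtrl replicate 2 and MT3, the form known from brain, at 0.04 TPM in shCtrl replicate 1. No order between the groups can be read from these.

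The genes beside the cluster were tested to show whether a lower level was shared along the chromosome. Of 22 other listed genes whose lower coordinate lies within 300 kb of it, 7 passed the filter, of which 2 rose and 4 fell (limma adjusted p under 0.05), beside 28.5% of all genes tested that rose and 25.9% that fell. The differences of these 7 ran from -1.0 to 0.60, with a median of -0.52, and all were smaller in size than that of MT1E. Upstream, BBS2, a subunit of the ciliary BBSome, fell by 0.64 (adjusted p = 0.00012). OGFOD1, a prolyl hydroxylase of a ribosomal protein, had a difference of 0.12 (adjusted p = 0.203), which turned to -0.13 as deposited. NUDT21, a subunit of the cleavage factor of mRNA 3′ ends, rose by 0.26 (adjusted p = 0.0343), but as deposited its difference was 0.02 (adjusted p = 0.851), and the call was also lost without shCtrl replicate 1 or 3 or GMDS-AS1 KD replicate 1 or 2 (adjusted p = 0.116, 0.124, 0.0856 and 0.0916). Downstream, the nearest tested gene, the nuclear pore gene NUP93, rose by 0.60 (adjusted p = 5.68e-06). HERPUD1, a gene of the unfolded protein response, fell by 1.00 (adjusted p = 1.08e-05). The RNA AC012181.1 inside HERPUD1 fell by 0.52 (adjusted p = 0.0289, and 0.0823 without GMDS-AS1 KD replicate 1), or by 1.11 with a pseudocount of 0.1, and it did not pass the filter when any shCtrl library was left out. OGFOD1 overlaps BBS2 and NUDT21 on the opposite strand, and AC012181.1 lies within HERPUD1, so reads in the overlaps may be split between these genes.

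**Figure D4:**
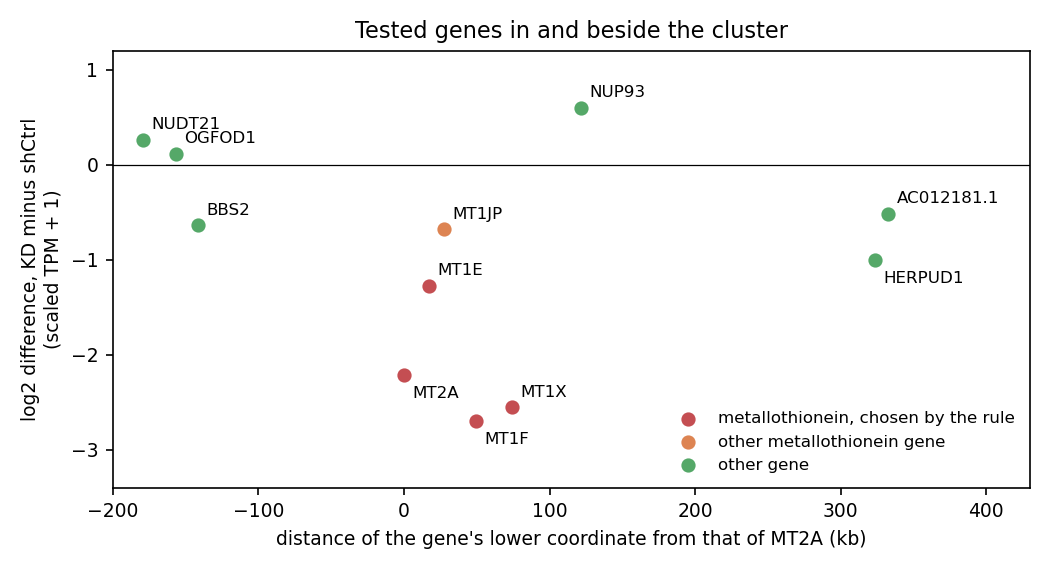
The log2 difference between GMDS-AS1 KD and shCtrl (scaled TPM + 1) of tested genes in and beside the metallothionein cluster, against the distance of each gene from MT2A in kb. Red points are the 4 measured metallothioneins, the orange point is MT1JP and green points are 6 of the other tested genes, which lie between -1.0 and 0.60.

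Zinc transporters were compared next, as metallothioneins and transporters together set the free zinc of the cell. Over all genes tested 28.5% rose and 25.9% fell (limma adjusted p under 0.05), to be held beside the counts of each list. For counts as deposited no such share was taken, and the median of all genes was -0.195 there. Of 10 genes of the SLC30 family, which export zinc from the cytosol, 7 were tested, 3 rose and 1 fell, with a median difference of 0.10. As deposited 1 rose and 3 fell. SLC30A1, the exporter of the plasma membrane, was at 13.76, 13.42 and 13.38 TPM in shCtrl and at 6.73, 5.92 and 6.49 TPM in GMDS-AS1 KD, and fell by 0.76 ± 0.064 (SE, adjusted p = 8.51e-05). SLC30A3 and SLC30A6 both rose by 0.48 and SLC30A5 rose by 0.41, though SLC30A3 and SLC30A5 were no longer called as deposited (adjusted p = 0.0622 and 0.134). Of 14 genes of the SLC39 family, which bring zinc into the cytosol, 11 were tested, 3 rose and 5 fell, with a median of -0.02, and as deposited 2 rose and 7 fell. SLC39A14, an importer of zinc, iron and manganese, was at 90.87 to 91.75 TPM in shCtrl and 39.7 to 40.51 TPM in GMDS-AS1 KD and fell by 0.93. SLC39A11 fell by 0.75, SLC39A9 by 0.68, and SLC39A13 rose by 0.71. SLC39A10, which MTF1 is known to hold down, had a difference of 0.10 (adjusted p = 0.21), or -0.14 as deposited.

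Genes of copper and iron handling were called in both directions, beside 28.5% of all genes tested that rose and 25.9% that fell. Of 11 copper genes tested 5 rose and 3 fell, and as deposited 3 rose and 6 fell. COX17, a copper chaperone of mitochondria, rose by 0.83, SCO2 by 0.65 and the copper-zinc superoxide dismutase SOD1 by 0.60, while the copper exporter ATP7B fell by 0.57. Of 11 iron genes tested 6 rose and 3 fell, and as deposited 4 rose and 5 fell. HMOX1, the heme oxygenase that frees iron from heme and is also raised by metals and oxidants, was at 21.48, 19.59 and 21.39 TPM in shCtrl and at 60.97, 60.49 and 60.49 TPM in GMDS-AS1 KD. It rose by 1.74 ± 0.049 (SE, adjusted p = 1.07e-06), a 3.34-fold higher level. The iron exporter SLC40A1 was low, at 1.64 ± 0.36 TPM in shCtrl and 0.180 ± 0.036 TPM in GMDS-AS1 KD (SD, n = 3 each), and fell by 1.06, or by 2.42 with a pseudocount of 0.1 in place of 1. The RNA-binding iron chaperone PCBP1 rose by 0.75 and NCOA4, which delivers ferritin to the lysosome, by 0.72. SLC40A1 passed the filter only through the shCtrl libraries, and it was not tested when any of these was left out. The count of iron genes that fell was 1 in place of 3 without shCtrl replicate 1, and likewise without shCtrl replicate 2.

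Metallothioneins are also known to take up oxidants and to be raised by stress, so redox and heat shock genes were set beside them. Of 12 genes of glutathione and thioredoxin 5 rose and 4 fell, and as deposited 3 rose and 6 fell. The shares over all genes tested were 28.5% that rose and 25.9% that fell after scaling. SLC7A11, which brings in cystine, fell by 1.68, and sulfiredoxin, SRXN1, fell by 0.99. The thioredoxin reductase TXNRD1 rose by 0.52. Of 10 heat shock genes all 9 that were tested rose, with a median of 1.16, and as deposited too all 9 rose. The chaperone HSPA1B was at 56.26, 57.34 and 56.20 TPM in shCtrl and at 305.52, 296.38 and 322.96 TPM in GMDS-AS1 KD and rose by 2.67 (adjusted p = 7.22e-08). HSPA8 rose by 2.00, HSPB1 by 1.90 and HSPE1 by 1.3. The tenth gene, HSPA1A, is a near-identical copy of HSPA1B and was at 0.117 TPM on average in shCtrl and listed at 0 in GMDS-AS1 KD, so reads of the pair may have been given to HSPA1B.

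Of 8 genes that the glucocorticoid receptor is known to raise 7 were tested, 2 rose and 5 fell, with a median of -0.71. As deposited 0 rose and 5 fell. The shares over all genes tested were 28.5% that rose and 25.9% that fell after scaling. TSC22D3, also called GILZ, was at 52.58, 51.97 and 55.51 TPM in shCtrl and at 7.19, 8.07 and 7.61 TPM in GMDS-AS1 KD and fell by 2.43 (adjusted p = 7.74e-07), close in size to the difference of MT2A. The kinase SGK1 fell by 1.33, ERRFI1, an inhibitor of EGFR, by 1.01 and the phosphatase DUSP1 by 0.71. FKBP5 and PER1 rose by 0.33 and 0.25, but had differences of 0.09 and 0.01 as deposited (adjusted p = 0.17 and 0.905). The number that rose was 1 in place of 2 without shCtrl replicate 2 or 3 or without GMDS-AS1 KD replicate 2.

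Among 12 regulators of metallothionein transcription 5 rose and 3 fell, and as deposited 3 rose and 5 fell. The shares over all genes tested were 28.5% that rose and 25.9% that fell after scaling. MTF1 was at 10.18, 9.83 and 9.28 TPM in shCtrl and at 11.90, 12.02 and 12.54 TPM in GMDS-AS1 KD. It rose by 0.52 ± 0.058 (SE, adjusted p = 0.000321), so that the zinc sensor and the members were on opposite sides of 0. USF2, a factor of E-box sites, rose by 1.73 and HSF1, the heat shock factor, by 0.71. STAT3, which acts on metallothionein genes after IL-6, fell by 0.79, the glucocorticoid receptor gene NR3C1 by 0.68 and NFE2L2, which encodes NRF2, by 0.61. The levels measured are those of the mRNAs and not of the activity of these factors.

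The genes whose pattern over the 6 libraries lay nearest to that of the summed members were sought among 8263 other genes with at least 10 TPM in shCtrl. Likeness was the Euclidean distance between log2(TPM + 1) profiles as deposited, each centred on its own mean. IGSF3, an immunoglobulin superfamily gene, was nearest at 0.104, followed by the proteoglycan SDC4 (0.146), the lysosomal membrane gene LAMP1 (0.148), AMOTL2 (0.167) and JDP2 (0.180). MT2A, which makes up most of the sum, lay at 0.140, MT1X at 0.554, MT1F at 0.765 and MT1E at 1.02. SDC4, for example, was at 163.7, 157.62 and 155.97 TPM in shCtrl and at 27.41, 28.19 and 28.56 TPM in GMDS-AS1 KD. The 1 added to TPM narrows the differences of genes at low levels, so the order depends on it. As deposited, the means were 6.62-fold lower for IGSF3, 5.67-fold for SDC4, 5.29-fold for LAMP1, 5.45-fold for AMOTL2 and 6.32-fold for JDP2. The sum of the members was 5.10-fold lower. These 5 genes were picked for this pattern, and their nearness rests on the difference between the same 2 groups.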

How the data were processed

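Poly-A RNA of HCT116 cells was sequenced in 3 shCtrl and 3 GMDS-AS1 KD libraries as pairs of reads. Per the submitters' processing notes, reads were trimmed with Trimmomatic 0.27 and aligned with TopHat2 2.1.1 to GRCh38, and the study's methods name Cufflinks 2.2.1 and RSEM 1.3.1, and DESeq2 for the authors' own comparison. The authors deposited TPM per gene, rounded to 2 decimals, and no read totals. The library preparation kit is given without a strand setting. Since the values are not counts, limma 3.58.1 in R 4.3.3 was used, on log2(TPM + 1) with a variance trend, after an unweighted trimmed mean scaling (30% of log ratios and 5% of mean values trimmed from each end). A gene was tested where 3 or more libraries had 0.5 TPM or more, which left 16901 genes, with Benjamini-Hochberg adjusted p over all of them. Called genes passed an adjusted p under 0.05, with a 2-fold change where stated. The fit was run on simulated data of this comparison with 16204 genes. It called 174 of 200 changed genes and 0 unchanged genes at least 2-fold with an adjusted p under 0.05. The changed genes that were raised had a median log2 difference of 1.50. Smaller changes and calls by adjusted p alone were thus not covered.

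The members and the gene lists were chosen with earlier results of these data known, and no p is given for the members. Named in the text were all members and other metallothionein genes, tested genes beside the cluster, up to 4 called genes a list by size of change, MTF1, SLC30A1, SLC39A10, HMOX1, GMDS-AS1, GMDS and the 5 genes nearest in profile. FKBP5, PER1, HSPA1A and the marker genes were named after their values were seen. A few genes that were counted are left unnamed. Positions and transcripts came from GENCODE v29, which held 58394 of the 60662 identifiers, promoters from RefSeq (GRCh38.p14) and the hairpin from the study's oligo list. Replicate numbers are shared by the groups in the labels. Alternatives covered scaling, pseudocount, filter, variance trend, replicate block and leaving out each library. Python 3.11.15 with numpy 2.4.6 and pandas 2.3.3 was used.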

Additional observations from a re-analysis of the deposited data

How the results depend on the processing

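The 4 measured members kept their direction under every alternative run for them (scaling, pseudocount, variance trend, replicate block and leaving out each library, of which the trend and the block were added for the members after the data were seen). The filter alternatives were not run for them. As deposited, their log2 differences were -2.46 (MT2A), -1.52 (MT1E), -2.79 (MT1X) and -2.91 (MT1F), with upper-quartile scaling -2.31, -1.36, -2.64 and -2.78, and with a pseudocount of 0.1 that of MT1F was -2.97. Leaving out each library gave -2.26 to -2.20 for MT2A and -1.30 to -1.26 for MT1E. The sum in GMDS-AS1 KD was 23.3% of shCtrl after scaling, and the sum without MT2A was 29.2% of shCtrl as deposited. Genes called at least 2-fold numbered 1212 (495 higher, 717 lower), 1402 as deposited (225 higher, 1177 lower), 1219 with upper-quartile scaling (364 higher, 855 lower) and 2209 with a pseudocount of 0.1. The fall of GMDS-AS1 was not called without the filter (-0.39, adjusted p = 0.149), and leaving out each library gave -0.52 to -0.30. SLC39A10 (-0.14) and OGFOD1 (-0.13) changed sign as deposited. The cause of these changes was not tested, apart from the shift of all genes by the scaling.

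Same-numbered libraries of the 2 groups did not deviate together (correlations of 0.029, -0.038 and 0.014), so the numbers were not taken as pairs. With a replicate block 1216 genes were called at least 2-fold. The difference of GMDS-AS1 stayed at -0.41 with an adjusted p of 0.0518, and that of AC012181.1 at -0.52 with 0.0525, and no other named gene changed its call with the block. The depth of the libraries is unknown, and a gene listed at 0 cannot be told from one with few reads.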
